A study of Mus musculus with 4 samples.

Results

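The genes described are those of the proteasome, chosen as every gene of the expression table whose symbol begins with Psm, continues with a letter from a to g and ends in a number. The rule took 48 of the 16051 genes listed. Of these, 44 had a mean of at least 1 FPKM, the number of fragments scaled to transcript length and library depth, over the 4 libraries and were tested. Psma8, Psmb8, Psmb9 and Psmb11 were below that level. The pattern takes in more than subunits. It holds 19 genes of the 20S core, 17 of the 19S regulatory particle, 4 activators, 3 chaperones of 19S assembly, 4 chaperones of 20S assembly and 1 inhibitor.

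The proteasome is the protease that degrades proteins marked with ubiquitin. Its barrel-shaped 20S core is built of alpha subunits, which form the outer rings and the gate, and beta subunits, some of which carry the proteolytic sites inside. The 19S particle binds ubiquitin chains, removes them, and unfolds and feeds the substrate into the core. In immune cells, and in many other cells exposed to interferon, Psmb8, Psmb9 and Psmb10 replace the catalytic subunits Psmb5, Psmb6 and Psmb7 to form the immunoproteasome, and the PA28 activator made of Psme1 and Psme2 is induced with them.

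The data were mRNA sequencing of 3T3-L1 cells, a mouse embryonic fibroblast line of NIH SWISS origin that can be turned into adipocytes in culture. Both groups were differentiated with an isobutylmethylxanthine, dexamethasone and insulin cocktail. RIS libraries came from cells given 100 µM risperidone, an atypical antipsychotic, for 48 h, and RNC libraries from the controls, which the labels call untreated and the study's methods describe as given the vehicle DMSO. There were 2 libraries per group, each made from RNA of 3 pooled cultures of this 1 line, so p-values measure only the spread between such libraries. The labels describe an RNA extraction from retinas, while the study's methods name cultured cells only.

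Total counts ranged from 15883712 to 16374119 per library. Of 12 adipocyte markers, 6 reached the tested level. Fabp4 and Lpl were present, but the defining markers Adipoq, Cidec, Retn and Slc2a4 had 0 to 2 counts in every library, so the labelled cell type was not borne out by them. Of the 6, 4 fell and none rose at an edgeR adjusted p under 0.05 (Lipe at -1.12, Fabp4 at -1.09, Plin4 at -0.75 and Lpl at -0.24 on the log2 scale), and the 12 summed to 21333 and 21905 counts in RNC and to 15488 and 15806 in RIS. The 4 that fell were 66.7% of the 6, beside 32.2% of all genes tested. Of 9 tested markers of fibroblasts and preadipocytes, 3 rose (Dlk1 at 1.52, Thy1 at 1.05 and Col1a1 at 0.99) and 3 fell (Col3a1 at -0.96, Pdgfrb at -0.50 and Col1a2 at -0.16, whose call was lost without RNC1 or RNC2). Each share was 33.3%, close to the 32.1% that rose and 32.2% that fell among all genes tested. RIS2 stood apart, with 3168 summed counts of 12 kidney genes against 75.2 to 101 in the other 3 libraries. Of 10 leukocyte markers, 7 were listed, with 54 and 73 summed counts in RNC1 and RNC2 and 123 and 140 in RIS1 and RIS2, while Ptprc, which defines leukocytes, had 0, 0, 1 and 3 counts. Most of that sum was Cd68, with 48, 62, 115 and 120 counts. The part of these markers in the proteasome results, that of Psmb10 included, was not tested. Of 10 retina markers, 5 were listed, with 50 to 68 summed counts per library, and none reached the tested level.

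The largest difference among the 44 tested proteasome genes was in Psmb10, the immunoproteasome's replacement for the trypsin-like subunit, which fell by 52.4%. Both PA28 genes, Psme1 and Psme2, fell modestly. Psma1 and Psmb1 of the core and Psmc6 and Psmd8 of the 19S particle rose by 29.0% to 35.7%. At an adjusted p under 0.05 (quasi-likelihood test of edgeR, Benjamini-Hochberg), 14 of the 44 rose, 5 fell and 25 passed in neither direction.

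Among all 10243 genes tested, 32.1% rose and 32.2% fell, so that 64.3% changed one way or the other. Against this background, 31.8% of the proteasome genes rose, a share close to that of all genes, 11.4% fell, and 43.2% changed. In 31 of the 44 the RNC and RIS libraries did not overlap in normalised FPKM, the deposited FPKM divided by the library's TMM scaling factor. Such a lack of overlap was found in 82.5% of all genes tested, a share above that of the 44. The median log2 fold change, RIS over RNC, was 0.01 over the 44 genes and 0.00 over all genes tested. The single values ran from -1.07 in Psmb10 to 0.44 in Psma1.

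The split of calls depended on how the libraries were scaled. The main fit was edgeR with TMM scaling on all 4 libraries, at a mean FPKM of at least 1. It gave 14 higher and 5 lower. With library size as the only scaling the split was 7 and 13, and with limma on log2(TPM + 1) it was 3 and 27. All genes moved likewise: their median log2 fold change was -0.09 by library size and -0.22 on TPM, where 1536 rose and 5292 fell. The median of the proteasome genes was -0.08 and -0.23 in those fits, a difference of 0.01 and of -0.0044 from the median of all genes. With an offset that removed each library's trend with gene length, 8 proteasome genes were higher and 15 lower. All genes did not move in that fit, where 3423 rose and 3264 fell with a median log2 fold change of 0.01, against -0.04 for the proteasome genes. The median effective length was 1185 bases for the tested proteasome genes and 2702 bases for all tested genes. Called in the same direction in all 15 alternative fits were Psma1, Psmb1 and Psmd8, which rose, and Psmb10, Psmc4 and Psme2, which fell.

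**Figure D1:**
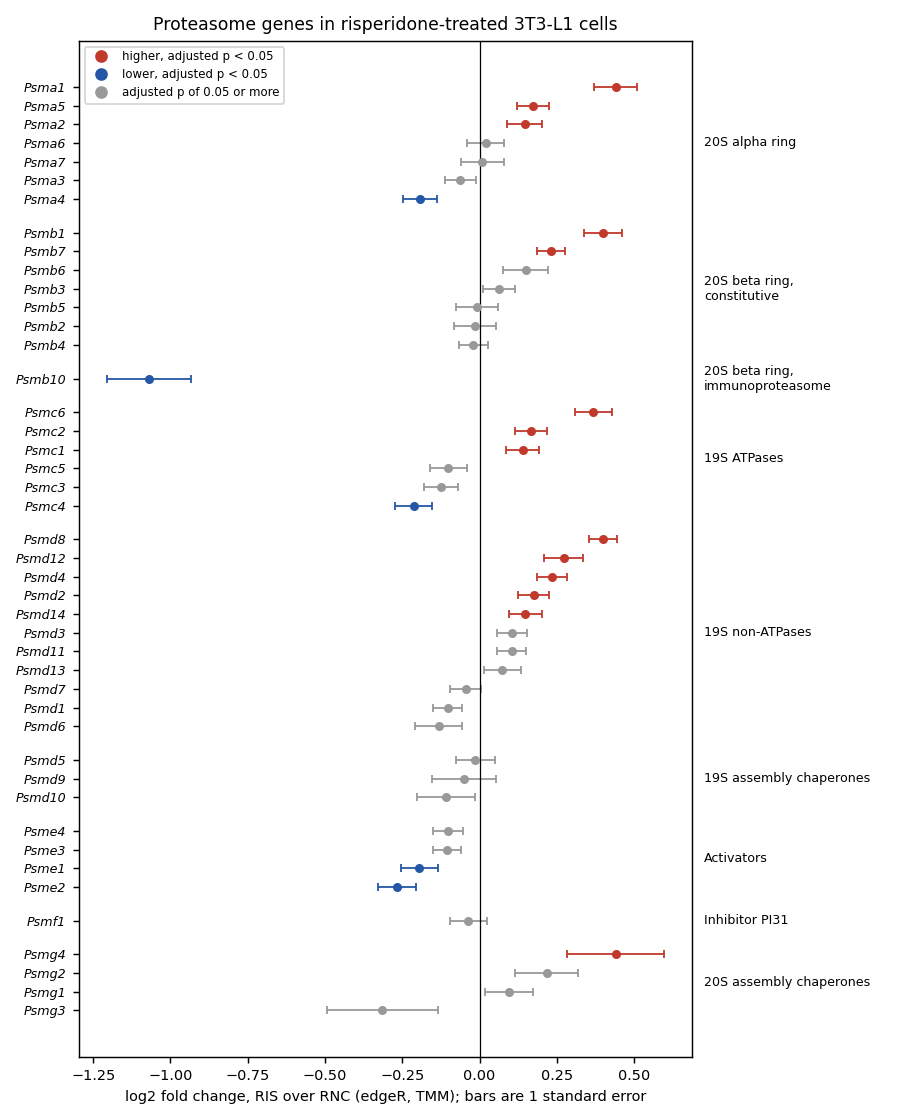
Log2 fold change (x axis, RIS over RNC, edgeR with TMM) of the 44 tested proteasome genes (y axis), grouped by role, with bars of 1 standard error, red where higher and blue where lower at an adjusted p under 0.05. Psmb10 lies at -1.07, apart from the other 43, which lie between -0.31 and 0.44.

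The sequence before the start of 5 of these genes is shown, since 3 of them (Psmb10, Psme1 and Psme2) are immune-type members that fell and Psma1 and Psmd8 are members that rose in every fit. Each window runs from 250 bases before to 50 bases after the gene's start in RefSeq on GRCm38.p6, written 5′ to 3′ on the gene's strand. The windows are chr8:105938343-105938642 on the minus strand, chr14:55578244-55578543 on the plus strand, chr14:55591052-55591351 on the minus strand, chr7:114276067-114276366 on the minus strand and chr7:29180624-29180923 on the minus strand. Capitals mark matches, on either strand, to TGANNNNGC (the core of the antioxidant response element), to the CCAAT box, to GGGCGG (the GC box), or to the interferon-stimulated response element core, here GAAA, any pair of bases and GAAA.
Psmb10: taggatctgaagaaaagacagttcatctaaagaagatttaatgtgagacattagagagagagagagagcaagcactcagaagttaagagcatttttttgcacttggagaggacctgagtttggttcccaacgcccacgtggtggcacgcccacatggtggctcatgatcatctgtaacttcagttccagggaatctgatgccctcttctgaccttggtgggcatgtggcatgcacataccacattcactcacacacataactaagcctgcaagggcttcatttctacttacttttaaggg
Psme1: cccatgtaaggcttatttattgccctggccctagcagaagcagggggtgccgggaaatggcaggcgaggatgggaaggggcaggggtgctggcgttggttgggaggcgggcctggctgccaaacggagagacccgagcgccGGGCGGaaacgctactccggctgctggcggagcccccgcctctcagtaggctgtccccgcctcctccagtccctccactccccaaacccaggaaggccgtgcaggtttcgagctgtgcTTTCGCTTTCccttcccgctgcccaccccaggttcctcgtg
Psme2: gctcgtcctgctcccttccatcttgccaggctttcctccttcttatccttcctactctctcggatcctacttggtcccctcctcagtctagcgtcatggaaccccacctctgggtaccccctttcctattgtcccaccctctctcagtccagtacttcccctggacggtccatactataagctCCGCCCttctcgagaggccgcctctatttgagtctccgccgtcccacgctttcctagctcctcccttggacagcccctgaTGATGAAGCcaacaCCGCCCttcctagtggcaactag
Psma1: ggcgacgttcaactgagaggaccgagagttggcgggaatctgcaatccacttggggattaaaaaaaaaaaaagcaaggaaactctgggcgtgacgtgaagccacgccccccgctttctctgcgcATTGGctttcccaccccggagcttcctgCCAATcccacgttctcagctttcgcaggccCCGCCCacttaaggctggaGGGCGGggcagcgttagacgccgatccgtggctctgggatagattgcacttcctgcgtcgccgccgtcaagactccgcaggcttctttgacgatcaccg
Psmd8: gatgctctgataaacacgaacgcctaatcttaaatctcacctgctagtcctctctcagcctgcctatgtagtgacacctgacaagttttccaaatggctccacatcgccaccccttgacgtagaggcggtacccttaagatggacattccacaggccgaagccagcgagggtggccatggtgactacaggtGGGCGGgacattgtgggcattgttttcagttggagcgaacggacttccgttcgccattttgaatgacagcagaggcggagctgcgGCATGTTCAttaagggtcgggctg

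No matches overlapped in these windows. Psmb10's window had no match to any of the 4 motifs, and other starts of the gene were not searched. Psme1 had 1 match to the interferon-stimulated core and 1 to GGGCGG, and Psme2 had 1 to TGANNNNGC and 2 to GGGCGG. RefSeq windows were at hand for 40 of the 48 proteasome genes. The interferon-stimulated core was found in 5 of the 40, or 12.5%, against 3.18% of the 12624 windows of genes in the table, and the 5 were Psmb3, Psmd4, Psmd9, Psme1 and Psmg4. TGANNNNGC was found in 55.0% against 42.8%, CCAAT in 35.0% against 38.9%, and GGGCGG in 57.5% against 57.9%. These matches describe letters and not binding.

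Among the catalytic subunits of the core, the constitutive forms stood far above the immune forms in FPKM, which is per length. Psmb7 (NCBI Gene 19177), the trypsin-like subunit, stood at 132 and 131 normalised FPKM in RNC1 and RNC2 and at 155 and 152 in RIS1 and RIS2. Both RIS libraries were above both controls. It rose by 0.23 on the log2 scale (SE 0.05, edgeR adjusted p = 0.00113), although on TPM its log2 fold change was -0.01. Psmb5, the chymotrypsin-like subunit, gave 75.8 and 76.4 normalised FPKM in RNC and 78.5 and 71.8 in RIS, so that the RIS libraries lay on both sides of the controls. Its log2 fold change was -0.01 (SE 0.07, edgeR adjusted p = 0.93). Psmb6, the caspase-like subunit, was at 68.3 and 75.9 in RNC and 83.6 and 75.3 in RIS, which overlap, with a log2 fold change of 0.15 (SE 0.07, edgeR adjusted p = 0.10). That value was 0.073 without RNC1 and 0.23 without RNC2. With the replicate number as a block in the fit, Psmb6 was called higher (edgeR adjusted p = 0.0487). Reads of Psmb5, Psmb6 and Psmb7 can be shared with pseudogenes named after them, and their values are uncertain to that extent.

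Psmb10 (NCBI Gene 19171, chr8:105935728-105938392 on GRCm38.p6) was the one immunoproteasome subunit with enough reads to be tested. Its raw counts were 267 and 280 in RNC1 and RNC2 and 134 and 110 in RIS1 and RIS2. In normalised FPKM these were 13.9, 14.7, 7.43 and 6.10, or 14.3 ± 0.579 in RNC and 6.76 ± 0.936 in RIS (SD, n = 2). The groups did not overlap, and the higher RIS library lay far below the lower control. Psmb10 fell by 1.07 on the log2 scale (SE 0.14, edgeR adjusted p = 4.61e-05), a level that fell by 52.4%. Without RIS2, the library with kidney transcripts, the log2 fold change was -0.94, and without RIS1 it was -1.21.

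Psmb8 (chr17:34198195-34201454), which replaces the chymotrypsin-like subunit, had 7, 8, 3 and 7 raw counts in RNC1, RNC2, RIS1 and RIS2. Psmb9 (chr17:34182030-34187330), which replaces the caspase-like subunit, had 5, 5, 1 and 4. Both genes lie in the major histocompatibility complex on mouse chromosome 17. At these counts, a few reads more or less would reorder the libraries. In a fit without a filter on low values, Psmb8 had a log2 fold change of -0.48 (SE 0.68, edgeR adjusted p = 0.60) and Psmb9 one of -0.88 (SE 0.90, edgeR adjusted p = 0.52), so a difference was not detectable at this depth. A count of 0 allows up to 3 counts, or 0.183 to 0.189 CPM (counts scaled to a common library total). Psma8, the testis form of an alpha subunit, and Psmb11, the thymus form of the chymotrypsin-like subunit, each had 1 count in RNC1 and 0 in the other 3 libraries.

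Set against its constitutive counterpart within each library, the FPKM of Psmb10 was 10.5% and 11.2% of that of Psmb7 in RNC1 and RNC2 and 4.80% and 4.02% in RIS1 and RIS2. This ratio does not depend on how the libraries are scaled, and its RIS mean was 0.405 of the RNC mean. The share of Psmb8 against Psmb5 was 0.499% and 0.582% in RNC and 0.225% and 0.572% in RIS, which overlap. For Psmb9 against Psmb6 it was 0.611% and 0.599% in RNC and 0.112% and 0.504% in RIS, on 1 to 5 counts of Psmb9. In bulk RNA, fewer cells that carry a transcript and less of it per cell cannot be told apart.

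**Figure D2:**
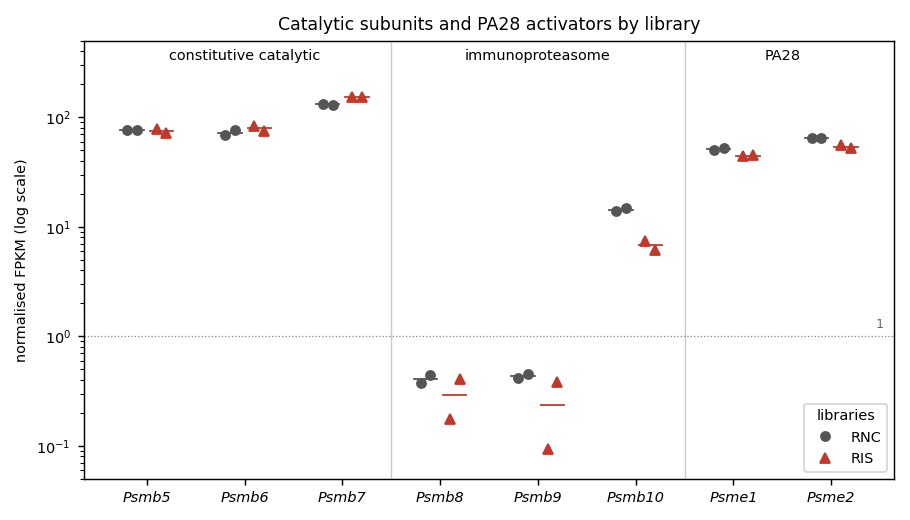
Normalised FPKM (y axis, log scale) of the constitutive catalytic subunits, the immunoproteasome subunits and the PA28 genes (x axis) in each library, circles for RNC and triangles for RIS, with a short line at each group's mean. Psmb10 falls from 14.3 to 6.76, both PA28 genes sit slightly lower in RIS, and Psmb8 and Psmb9 lie below the dotted line at 1.

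The alpha ring forms the gated ends of the core and carries no active site. Of its 7 tested genes, 3 rose (Psma1, Psma2 and Psma5) and 1 fell (Psma4). These were 42.9% and 14.3%, beside 32.1% and 32.2% of all genes tested. Called in either direction were 57.1%, beside 64.3% of all genes tested. On TPM Psma2 was at -0.10 and Psma5 at -0.07, and the split there was 1 higher (Psma1) and 4 lower (Psma3, Psma4, Psma6 and Psma7). The calls for Psma2 and Psma5 held in only 4 and 7 of the 15 alternative fits. They were lost with DESeq2 (adjusted p = 0.12 and 0.0609), by library size, on FPKM and with the length offset, that for Psma2 also without RNC1, RNC2 or RIS1 (adjusted p = 0.26, 0.17 and 0.22), and that for Psma5 without RNC1 or RNC2 (adjusted p = 0.11 and 0.16). Psma1 stood at 54.4 and 54.2 normalised FPKM in RNC1 and RNC2 and at 77.9 and 68.8 in RIS1 and RIS2. Both RIS libraries were well above the controls, with a rise of 0.44 on the log2 scale (SE 0.07, edgeR adjusted p = 0.000223), or 35.7%. Psma4 moved the other way, from 117 and 126 in RNC to 108 and 101 in RIS, with a log2 fold change of -0.19 (SE 0.06, edgeR adjusted p = 0.0108). The call for Psma4 was lost without RNC2 (-0.14) and in the fit without a filter on low values (-0.19, edgeR adjusted p = 0.0549). Psma3, Psma6 and Psma7 had log2 fold changes of -0.06, 0.02 and 0.01 and were not called on TMM scaling, while Psma3 was called lower by library size, on FPKM, on TPM and with the length offset.

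Of the 7 constitutive beta genes, Psmb1 and Psmb7 rose and none fell. These were 28.6% of the 7, beside 32.1% of all genes tested that rose and 64.3% called in either direction. Psmb7 lost its call on TPM and with the length offset (adjusted p = 0.84 and 0.0789). In each of those 2 fits Psmb2, Psmb3, Psmb4 and Psmb5 were called lower, so that 1 gene was higher and 4 were lower. Psmb1, a structural beta subunit with no active site, had the highest level of the constitutive core. It was at 223 and 233 normalised FPKM in RNC1 and RNC2 and at 320 and 279 in RIS1 and RIS2. The libraries did not overlap, and the log2 fold change was 0.40 (SE 0.06, edgeR adjusted p = 0.000189). The other structural beta subunits, Psmb2, Psmb3 and Psmb4, had log2 fold changes of -0.02, 0.06 and -0.02 and were not called on TMM scaling. Over the 14 constitutive core genes tested, mean levels spanned 4.21-fold in RNC and 4.09-fold in RIS, with Psmb1 highest and Psma1 lowest in both groups. Psma1, the gene with the largest rise of the core, was thus still its lowest in RIS.

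Levels were also summed over each ring, in normalised FPKM. The alpha ring summed to 650 ± 14.9 in RNC and 672 ± 33.0 in RIS (SD, n = 2), and the constitutive beta ring to 961 ± 17.7 and 1061 ± 62.6. The 3 immunoproteasome genes summed to 15.1 ± 0.652 and 7.29 ± 0.568, nearly all of it Psmb10. As a ratio of RIS over RNC, the constitutive beta ring was at 1.10 on TMM-scaled FPKM but at 0.936 on TPM, so its direction turned with the scaling, and the alpha ring's did too, from 1.03 to 0.876. The median of all genes was itself at -0.22 on TPM, as given above. The immunoproteasome ratio was 0.482 and 0.409, below 1 on both scales. Among the tested proteasome genes, RIS2 was lower than RIS1 in 35 of 44, with a median log2 ratio of -0.08, while RNC2 was lower than RNC1 in 12 of 44. Whether the kidney transcripts of RIS2 had a part in this was not tested. The same counts were not made over all genes tested, so the shift is not shown to be particular to the proteasome genes.

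**Figure D3:**
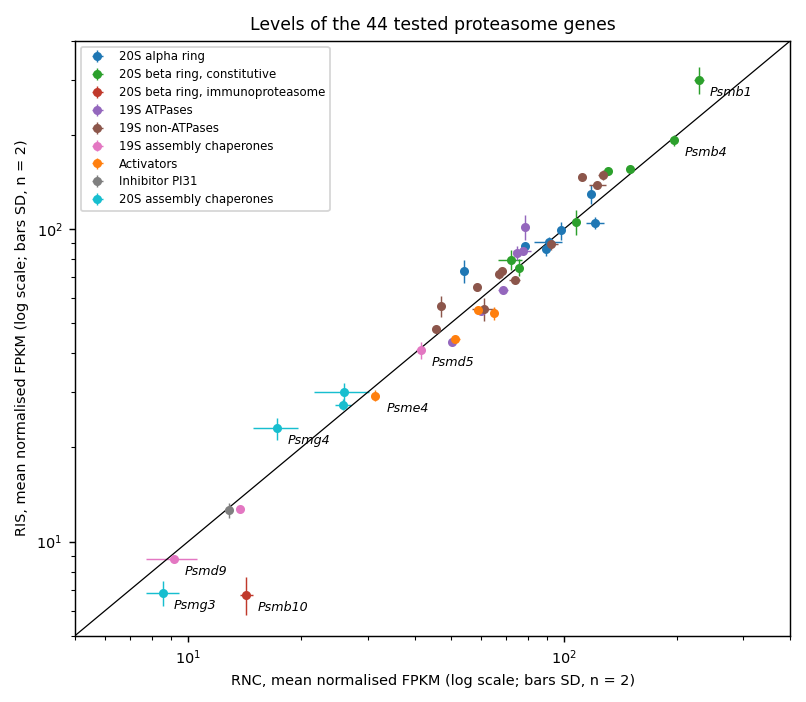
Mean normalised FPKM of the 44 tested proteasome genes in RNC (x axis) and RIS (y axis), both on log scales, coloured by role, with SD bars (n = 2) and a line of equal level. Most genes lie near the line, Psmb1 is highest at 228 and 300, and Psmb10 lies well below the line.

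The 19S particle had 8 genes that rose and 1 that fell among 17. These were 47.1% and 5.88%, beside 32.1% and 32.2% of all genes tested. Called in either direction were 52.9%, beside 64.3% of all genes tested. With library size as the only scaling 4 were called higher and 6 lower, on TPM 1 and 9, and with the length offset 6 and 4. Its 6 ATPases, which form the ring that unfolds substrates, held 3 that rose (Psmc1, Psmc2 and Psmc6) and 1 that fell (Psmc4). Called were thus 66.7% of the 6, a share close to the 64.3% of all genes tested. Psmc6 was at 77.5 and 79.9 normalised FPKM in RNC1 and RNC2 and at 108 and 94.7 in RIS1 and RIS2. It rose clear of the controls, by 0.37 on the log2 scale (SE 0.06, edgeR adjusted p = 0.000308), although on TPM it was at 0.12 and not called (adjusted p = 0.0737). Psmc4 was at 50.0 and 50.8 in RNC and at 43.3 and 43.4 in RIS. Replicates of Psmc4 lay close together and the groups apart, with a log2 fold change of -0.21 (SE 0.06, edgeR adjusted p = 0.0101). Members of 1 hexamer thus differed in direction. Psmc1 and Psmc2, at 0.14 and 0.17, turned to -0.10 and -0.07 on TPM. Both lost their calls without RNC1, RNC2 or RIS1, with adjusted p from 0.0575 in Psmc2 to 0.46 in Psmc1. Psmc1 lost its call with DESeq2 as well (adjusted p = 0.12). Psmc3 and Psmc5, at -0.13 and -0.10, were not called in the main fit (edgeR adjusted p = 0.0682 and 0.16), but were called lower by library size, on TPM and with the length offset. At a mean FPKM of at least 5, Psmc3 was called lower as well (edgeR adjusted p = 0.0263).

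Of the 11 non-ATPase genes of the 19S particle, 5 rose and none fell in the main fit. The 5 were 45.5% of the 11, beside 32.1% of all genes tested that rose and 64.3% called in either direction. With TMM scaling at a mean FPKM of at least 5, Psmd1 was called lower (edgeR adjusted p = 0.0277). On TPM 1 was higher (Psmd8) and 6 were lower (Psmd1, Psmd3, Psmd6, Psmd7, Psmd11 and Psmd13). By library size 3 were higher (Psmd4, Psmd8 and Psmd12) and 3 were lower (Psmd1, Psmd6 and Psmd7). Psmd8, a subunit of the lid, stood at 110 and 114 normalised FPKM in RNC1 and RNC2 and at 147 and 146 in RIS1 and RIS2. It had the smallest adjusted p of all proteasome genes, with a log2 fold change of 0.40 (SE 0.05, edgeR adjusted p = 2.22e-05). Psmd12, another lid subunit, was at 47.5 and 46.8 in RNC and 59.9 and 53.7 in RIS, again without overlap, and rose by 0.27 (SE 0.06, edgeR adjusted p = 0.00313), although on TPM it was at 0.03 and not called (adjusted p = 0.65). The other genes that rose were Psmd4, which binds ubiquitin chains, by 0.24, Psmd2, a scaffold of the base, by 0.17, and Psmd14, the deubiquitinase that removes the chains, by 0.15. On TPM these last 3 were at -0.01, -0.06 and -0.09. The call for Psmd2 held in 10 of the 15 alternative fits. It was lost by library size (0.08, edgeR adjusted p = 0.18), on FPKM, on TPM and without RNC2 (0.12). That for Psmd14 held in 4 of the 15. Its losses included DESeq2 (adjusted p = 0.12) and the fits without RNC1, RNC2 or RIS1 (0.13, 0.16 and 0.13). Psmd1, Psmd3, Psmd6, Psmd7, Psmd11 and Psmd13 lay between -0.13 and 0.10 in the main fit and were not called there.

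The 19S levels in normalised FPKM ran from 45.7 in Psmd13 to 127 in Psmd4 in RNC, a span of 2.78-fold. In RIS they ran from 43.3 in Psmc4 to 149 in Psmd4, a span of 3.43-fold. The lowest place passed from a lid subunit to an ATPase. Summed over the 17 genes, the level was 1286 ± 17.5 in RNC and 1394 ± 28.2 in RIS (SD, n = 2), a ratio of 1.08 that was 0.920 on TPM.

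Activators dock onto the core in place of the 19S particle. Psme1 and Psme2 form PA28, Psme3 forms its nuclear relative, and Psme4 encodes the large single-chain activator PA200. Psme1 and Psme2 are neighbours on chromosome 14 (chr14:55578494-55581527 and chr14:55587440-55591101). Psme1 was at 50.1 and 52.5 normalised FPKM in RNC1 and RNC2 and at 44.2 and 44.9 in RIS1 and RIS2. Psme2 was at 64.6 and 65.2 in RNC and at 55.5 and 52.0 in RIS. In both genes each RIS library was below each control.

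Psme2 fell by 0.27 on the log2 scale (SE 0.06, edgeR adjusted p = 0.00303), and Psme1 had a log2 fold change of -0.19 (SE 0.06, edgeR adjusted p = 0.0133). The call for Psme1 was lost with DESeq2 (-0.19, adjusted p = 0.14), without RNC2 (-0.16, adjusted p = 0.0947) and without RIS1 (-0.18, adjusted p = 0.0547), while that for Psme2 held in all 15 alternative fits. Psme1 overlaps Emc9 on the genome, and the sources used here do not say whether reads were counted by strand. The pair summed to 116 ± 2.15 in RNC and 98.3 ± 2.03 in RIS, a ratio of 0.846 that was 0.718 on TPM. The FPKM of Psme2 was 129% and 124% of that of Psme1 in RNC and 126% and 116% in RIS, which overlap.

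Psme3 stood at 58.0 and 59.9 normalised FPKM in RNC and at 55.6 and 54.1 in RIS, and Psme4 at 31.0 and 31.9 against 28.5 and 30.1. The RIS libraries were below the controls in both, yet neither passed the test in the main fit, with log2 fold changes of -0.11 and -0.10 (SE 0.05 in each, edgeR adjusted p = 0.0660 and 0.0846). Both were called lower by library size, on FPKM and on TPM, and Psme3 with the length offset as well (edgeR adjusted p = 0.0193). With TMM scaling at a mean FPKM of at least 5, both were also called lower (edgeR adjusted p = 0.0228 and 0.0343). With Psme3 and Psme4, all 4 activator genes had a log2 fold change below 0 on TMM scaling, which was also so in every alternative fit except that Psme4 was at 0.00 under the length offset.

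Assembly of the particle depends on dedicated chaperones. Of the 20S assembly chaperones, which pair up as Psmg1 with Psmg2 and Psmg3 with Psmg4, only Psmg4 was called. It was at 18.9 and 15.6 normalised FPKM in RNC1 and RNC2 and at 24.4 and 21.7 in RIS1 and RIS2. The groups did not overlap but the control libraries lay wide apart, and its log2 fold change of 0.44 had an SE of 0.16 (edgeR adjusted p = 0.0287). The call for Psmg4 held in 8 of the 15 alternative fits, over which its lowest log2 fold change was 0.14. It was lost with DESeq2, by library size, with no filter, on TPM and without RNC2 or RIS1. With the length offset it was lost too (edgeR adjusted p = 0.45). Psmg3, the partner of Psmg4, was at 9.18 and 7.98 in RNC and at 6.42 and 7.28 in RIS. That difference, -0.31 (SE 0.18), did not pass the test (edgeR adjusted p = 0.15), although on TPM and with the length offset Psmg3 was called lower. Psmg1 and Psmg2 had log2 fold changes of 0.09 and 0.22 and were not called in the main fit. Over the alternative fits Psmg2 ran from -0.019 to 0.40. It was called higher in 4 of the 15, that with the replicate number as a block among them.

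The chaperones of 19S assembly gave no calls on TMM scaling, while on TPM all 3 were called lower (Psmd5 at -0.25, Psmd9 at -0.27 and Psmd10 at -0.34), as was Psmd10 on FPKM. Psmd10 was at 13.7 and 13.8 normalised FPKM in RNC and at 12.8 and 12.5 in RIS, with a log2 fold change of -0.11 (SE 0.09, edgeR adjusted p = 0.33). Psmd9 was at 8.13 and 10.1 in RNC and at 8.69 and 8.90 in RIS, where the controls enclosed both treated libraries. Its log2 fold change was -0.05 and that of Psmd5 -0.01. Psmf1, whose protein PI31 was first described as an inhibitor of the core, stood at 12.7 and 13.0 in RNC and at 13.1 and 12.1 in RIS, with a log2 fold change of -0.04 (SE 0.06, edgeR adjusted p = 0.61), although it was called lower on TPM. Psmd10 and Psmf1 overlap Atg4a and Tmem74b on the genome, Psmd1 overlaps Htr2b and Psme4 overlaps Erlec1.

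**Figure D4:**
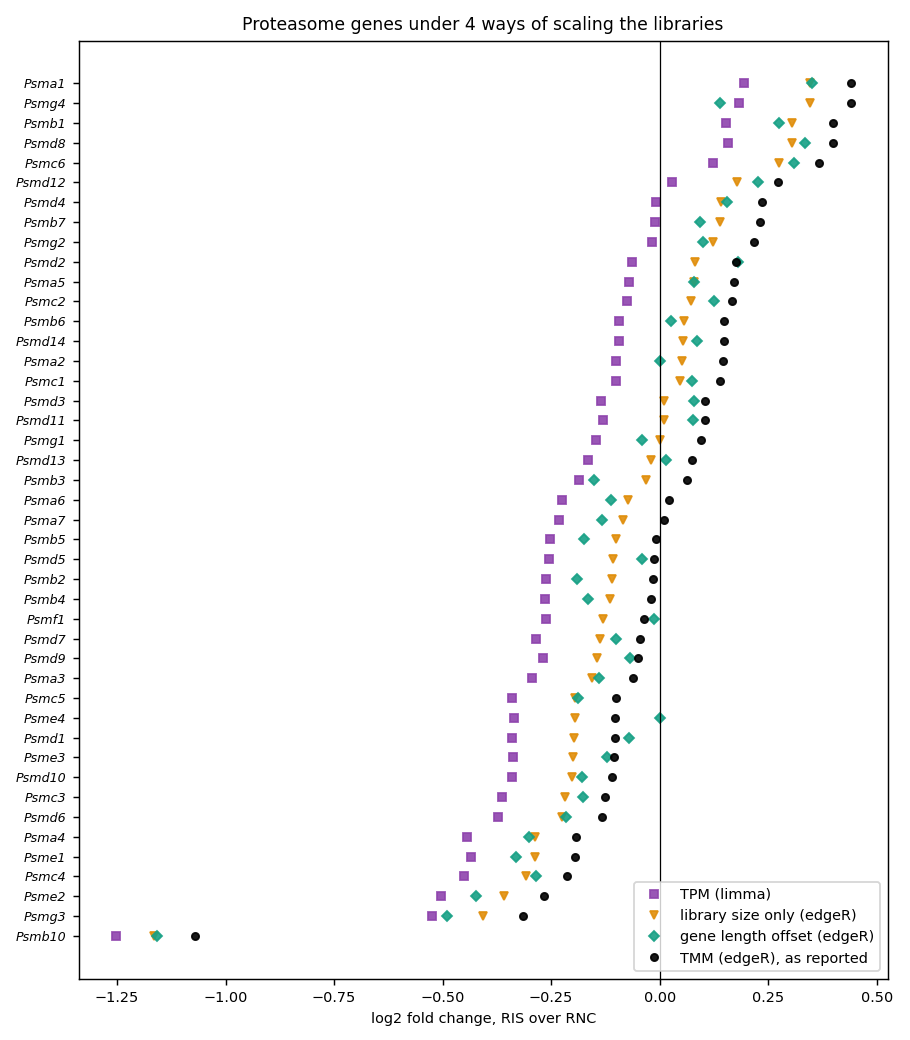
Log2 fold change (x axis, RIS over RNC) of each tested proteasome gene (y axis) under 4 scalings, with circles for TMM, triangles for library size only, diamonds for the gene length offset and squares for limma on log2(TPM + 1). The TPM values lie to the left of the TMM values, with a median of -0.23 against 0.01, and Psmb10 is lowest under each.

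Genes that work with the proteasome but carry other names were taken from 4 lists of 47 genes in all, of which 44 were tested, 18 rose and 17 fell. These were 40.9% and 38.6% of the 44, beside 32.1% and 32.2% of all genes tested. Of 9 tested partners that bind or assemble the particle, 6 rose and none fell. These were 66.7% of the 9, beside 32.1% of all genes tested that rose and 64.3% called in either direction. Uchl5, a deubiquitinase of the 19S particle, was at 29.1 and 29.4 normalised FPKM in RNC and at 42.2 and 38.6 in RIS. Usp14, the other deubiquitinase that docks there, was at 36.1 and 37.5 in RNC and at 49.6 and 50.6 in RIS. Adrm1, the ubiquitin receptor that recruits Uchl5, was at 69.9 and 67.6 against 94.3 and 87.3. None of these 3 genes overlapped between groups, as was the case for 82.5% of all genes tested. Their log2 fold changes were 0.51 (SE 0.07), 0.42 (SE 0.05) and 0.40 (SE 0.05), with edgeR adjusted p of 9.15e-05, 2.73e-05 and 5.77e-05, and Txnl1, a thioredoxin-like protein bound to the 19S particle, rose by 0.40 (SE 0.05, edgeR adjusted p = 3.53e-05). These 4 were called in all 15 alternative fits. Pomp, the maturation protein of the 20S core, was at 116 and 123 in RNC and at 120 and 110 in RIS and was not called (log2 fold change -0.04, edgeR adjusted p = 0.61), although on TPM and with the length offset it was called lower.

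Of the 8 tested genes for the control of proteasome gene transcription, 2 rose and 4 fell, so that 75.0% were called, beside 64.3% of all genes tested. Nfe2l1 encodes the factor that raises proteasome gene transcription when proteasome activity is low. It was at 158 and 152 normalised FPKM in RNC and at 135 and 140 in RIS, a non-overlapping difference of -0.18 on the log2 scale (SE 0.05, edgeR adjusted p = 0.00809). The call was lost without RNC1 (adjusted p = 0.11). Nfe2l2, its relative in the antioxidant response, was at 71.8 in both RNC libraries and at 35.3 and 38.2 in RIS, and fell by 0.96 (SE 0.05, edgeR adjusted p = 1.20e-07). Ngly1, the deglycosylase that processes the Nfe2l1 protein, had a log2 fold change of -0.52 (SE 0.06, edgeR adjusted p = 3.38e-05). The small Maf genes Maff and Mafk, whose proteins pair with both factors, rose by 0.60 (SE 0.18, edgeR adjusted p = 0.0123) and 0.43 (SE 0.07, edgeR adjusted p = 0.000238). Mafg, the other small Maf gene and named after its values were seen, had a log2 fold change of -0.23 (SE 0.05, edgeR adjusted p = 0.00391), and its call was lost without RNC2 (adjusted p = 0.0837). The call for Mafk was lost on TPM (adjusted p = 0.0797). The call for Maff was lost with DESeq2 (adjusted p = 0.0611), on TPM (adjusted p = 0.13) and without RNC1, RNC2 or RIS1 (adjusted p = 0.0662, 0.0527 and 0.0570). Nfe2l3 was not tested.

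Of 14 genes of ubiquitin and of its delivery to the proteasome, 7 rose and 5 fell, so that 85.7% were called, beside 64.3% of all genes tested. Rps27a, which encodes ubiquitin fused to a ribosomal protein, was at 570 and 613 normalised FPKM in RNC and at 1213 and 1084 in RIS. Both RIS libraries were far above the controls, and its rise of 0.96 on the log2 scale (SE 0.06, edgeR adjusted p = 3.39e-07) was larger than that of any proteasome gene. Ubqln2, a shuttle that carries ubiquitin-bound proteins to the proteasome, had a log2 fold change of -0.60 (SE 0.05, edgeR adjusted p = 1.10e-06). Genes of ubiquitin have near-identical coding repeats, so reads may have been split among them.

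Of 13 tested genes of antigen processing and the interferon response, 3 rose and 8 fell, or 23.1% and 61.5%, beside 32.1% and 32.2% of all genes tested. Called in either direction were 84.6% of the 13 and 64.3% of all genes. Irf1, a transcription factor that induces immunoproteasome genes, was at 17.3 and 17.6 normalised FPKM in RNC and at 8.12 and 9.27 in RIS. It fell by 50.1% (SE 0.08 on the log2 scale, edgeR adjusted p = 1.26e-06). A link between this fall and that of Psmb10 was not tested. Erap1, which trims peptides in the endoplasmic reticulum, had a log2 fold change of -0.75 (SE 0.06, edgeR adjusted p = 1.28e-06). Irf9, a part of the interferon signalling complex, was at -0.61 (SE 0.12, edgeR adjusted p = 0.00105). The 3 that rose, named after their values were seen, were B2m at 0.35, Tapbp at 0.31 and Tap2 at 0.22, but none of the 3 was called on TPM, where they were at 0.11, 0.07 and -0.02 (adjusted p = 0.0674, 0.37 and 0.83). Tap2 also lost its call with DESeq2 (adjusted p = 0.13) and without RNC2 or RIS1 (adjusted p = 0.0617 and 0.0723). Tap1 was at 0.01 and was not called. Of the class I heavy chain genes, also named after their values were seen, H2-K1 fell by 0.29 (SE 0.04, edgeR adjusted p = 0.000216), and H2-D1 was at 0.00 and not called (edgeR adjusted p = 0.99), although on TPM it was at -0.24 and called lower.

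**Figure D5:**
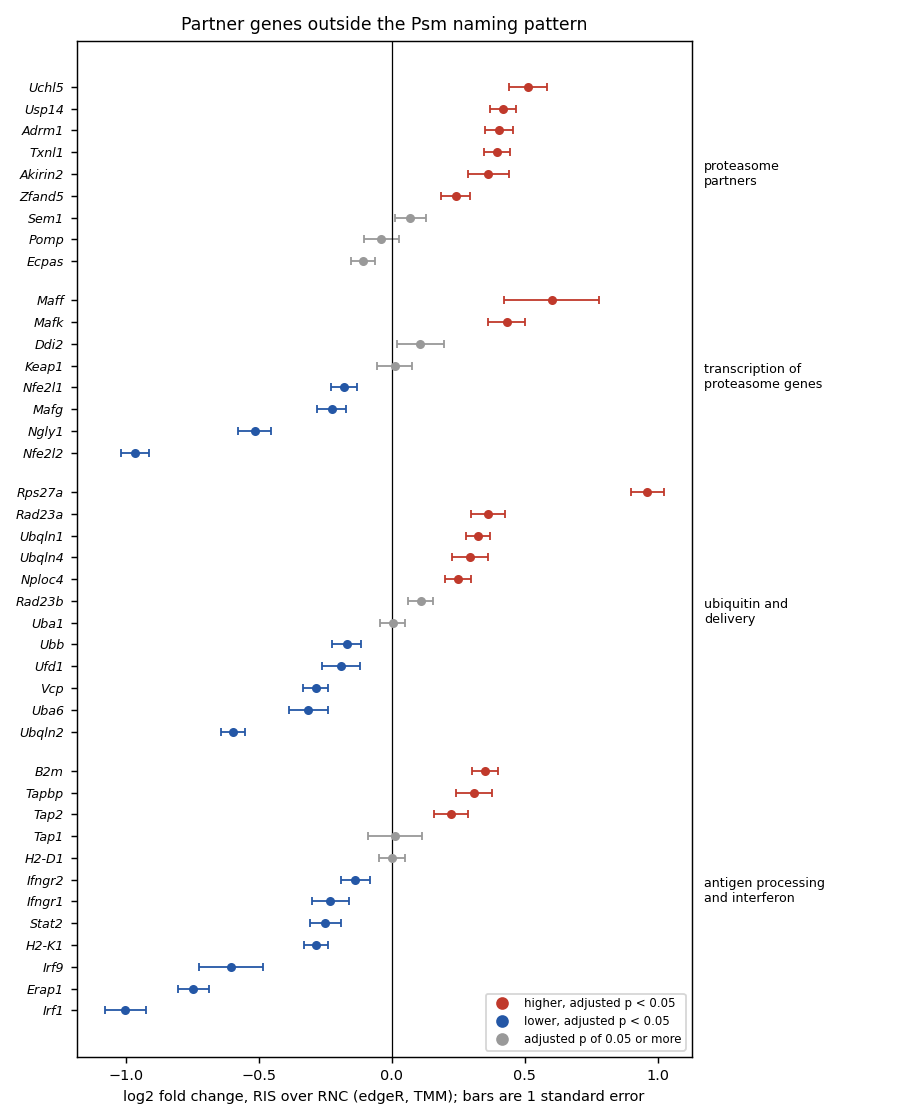
Log2 fold change (x axis, RIS over RNC, edgeR with TMM) of the tested partner genes (y axis) in 4 lists, 3 of the 44 left out, with bars of 1 standard error, red where higher and blue where lower at an adjusted p under 0.05. Of those drawn, Rps27a is highest at 0.96 and Irf1 lowest, and no proteasome partner was called lower.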

How the data were processed

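Gene-level mRNA sequencing values of 4 libraries were analysed. Reads were sequenced on an MGISEQ-2000 and cleaned by the authors, whose processing notes in the labels name GRCm38.p6, Bowtie2, RSEM and DESeq2, without versions. The estimated counts (expected counts), FPKM and TPM of each library were made by the authors and used as deposited. Between 91.2% and 91.7% of the counts were whole. Group means in the deposited table were not used.

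Counts were rounded, and the 10243 genes with a mean FPKM of at least 1 entered edgeR's fit (version 4.0.16, under R 4.3.3) with TMM scaling and the two-sided quasi-likelihood F-test (Benjamini-Hochberg over all genes tested, threshold 0.05, no covariate). TMM factors were 1.03 and 1.03 for RNC and 0.963 and 0.973 for RIS. Alternatives used DESeq2 1.42.0, limma 3.58.1 on log2(FPKM + 1), log2(FPKM + 0.1) and log2(TPM + 1), RLE or library size scaling, other filters, a length offset, a replicate block and each library left out. The fits were tested on simulated data. Counting limits cover counting error only.

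The proteasome genes and all lists were chosen with earlier results of these data known. All genes of the naming pattern were named, with values per library for catalytic subunits, activators and the 2 largest changes of each other role. Of each partner list, up to 4 genes with the largest called changes were named, besides Nfe2l1 and Pomp, and 3 such genes are not reported here. Sequences and positions are from RefSeq on GRCm38.p6, and motifs were counted on both strands. Paaf1 of the partner lists had no row under that symbol.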

Additional observations from a re-analysis of the deposited data

How the results depend on the processing

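Direction and call of Psmb10 and Psme2 were the same in all 15 alternative fits (Psmb10 from -1.25 to -0.94). The immunoproteasome to constitutive ratio (Psmb10 over Psmb7, RIS over RNC), 0.405, was 0.369 to 0.441 with a library left out. The number of proteasome genes called higher, 14, was 9 with DESeq2 and with no filter, 7 by library size, 8 with limma on log2(FPKM + 1) and on log2(FPKM + 0.1), 3 on TPM, 8 with the length offset, and 9 to 17 with a library left out (9 without RNC1, RNC2 or RIS1). The number called lower, 5, was 13 by library size, 15 on both FPKM scales, 27 on TPM, 9 at a mean FPKM of at least 5, 15 with the length offset, and 3 (without RNC2) to 8 (without RIS2) with a library left out. Of the 20S core, 5 genes were higher, against 3 with DESeq2, library size and both FPKM scales, 2 on TPM and with the length offset, and 3 (without RNC1) to 6 with a library left out. Of the 19S particle, 8 were higher, against 4 by library size and on both FPKM scales, 1 on TPM, 5 with no filter, and 4 (without RNC2; 5 without RNC1 or RIS1) to 9 with a library left out. Partner genes called higher, 18, were 7 on TPM. The median log2 fold change of the proteasome genes, 0.01, was -0.079 by library size, -0.085 and -0.086 on log2(FPKM + 1) and log2(FPKM + 0.1), -0.23 on TPM, -0.041 with the length offset, and -0.027 to 0.074 with a library left out. Psme1 lost its call with DESeq2 (-0.19) and ranged from -0.23 to -0.16 with a library left out. The scalings moved the median of all genes as given above. For the other settings the cause was not tested.

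Single genes turned sign as follows. On TPM the log2 fold changes were -0.10 for Psma2, -0.070 for Psma5, -0.22 for Psma6, -0.23 for Psma7, -0.18 for Psmb3, -0.095 for Psmb6, -0.012 for Psmb7, -0.10 for Psmc1, -0.075 for Psmc2, -0.063 for Psmd2, -0.14 for Psmd3, -0.0083 for Psmd4, -0.13 for Psmd11, -0.17 for Psmd13, -0.093 for Psmd14, -0.15 for Psmg1 and -0.019 for Psmg2. By library size they were -0.073 for Psma6, -0.085 for Psma7, -0.031 for Psmb3 and -0.019 for Psmd13. With limma on log2(FPKM + 1) and on log2(FPKM + 0.1) they were -0.081 and -0.082 for Psma6, -0.089 and -0.090 for Psma7, -0.042 and -0.042 for Psmb3, -0.024 and -0.024 for Psmd13, and -0.0061 and -0.0063 for Psmg1. At a mean FPKM of at least 5, Psma6 was at -0.0046 and Psma7 at -0.016. With the length offset they were -3.4e-05 for Psma2, -0.11 for Psma6, -0.13 for Psma7, -0.15 for Psmb3, 0.0014 for Psme4 and -0.041 for Psmg1. With a library left out, Psma6 ran from -0.044 to 0.083, Psma7 from -0.077 to 0.10, Psmb2 from -0.10 to 0.069, Psmb4 from -0.057 to 0.016, Psmb5 from -0.067 to 0.049, Psmd5 from -0.077 to 0.048, Psmd9 from -0.20 to 0.12, Psmf1 from -0.090 to 0.016 and Pomp from -0.097 to 0.015. Except for Psma2, Psma5, Psmb7, Psmc1, Psmc2, Psmd2, Psmd4 and Psmd14, none of these was called in the main fit. Other fits with TMM scaling called some of them. Among these calls, Psmb6 and Psmg2 were higher with the replicate block, and Psme4 was lower at a mean FPKM of at least 5.

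The replicate numbers did not pair the libraries: the correlation of same-numbered deviations from the group means was -0.139. With the replicate block, 16 proteasome genes were higher and 5 lower, the median was 0.02, and Psmb10 was at -1.07. With the numbers crossed, a setting chosen after seeing the data, 17 were higher and 10 lower. Psmb8 and Psmb9 had too few counts for the filtered fits, so depth limits them to the values given above.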
